A study of Homo sapiens with 12 samples.

Results

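The nuclear genes for subunits of the 5 oxidative phosphorylation complexes were followed in 2 Ewing sarcoma cell lines treated with an inhibitor of CDK12. Genes were taken by symbol: NDUFA, NDUFB, NDUFC, NDUFS or NDUFV followed by a digit for complex I, SDHA to SDHD for complex II, UQCR for complex III, COX4 to COX8 for complex IV and ATP5 for complex V. Of 85 matching symbols, 75 had a usable gene-level value among the 16913 genes kept, and 70 of these passed the signal filter together with 10148 genes in all. The tested members were 31 genes of complex I, 3 of complex II, 8 of complex III, 13 of complex IV and 15 of complex V. The other 5 (COX4I2, COX6B2, COX7B2, COX8C and ATP5MGL) had a mean log2 signal under the filter level of 5.943 and were not tested. Another 7 symbols (ATP5MC2, ATP5PD, ATP5PF, NDUFA11, NDUFB11, NDUFC1 and NDUFV1) had only values rounded to 2 decimals and were not analysed here. The last 3 were readthrough or pseudogene symbols (ATP5F1EP2, ATP5MF-PTCD1 and NDUFC2-KCTD14). SDHB and UQCRFS1 were not analysed here.

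Oxidative phosphorylation is carried out in the inner mitochondrial membrane. Complexes I and II pass electrons from NADH and succinate to ubiquinone, complex III passes them to cytochrome c and complex IV to oxygen. Complexes I, III and IV pump protons, and complex V, the ATP synthase, uses the returning protons to make ATP. Most subunits are encoded in the nucleus, and a few core subunits of every complex except complex II are encoded by mitochondrial DNA.

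The study measured total RNA from A673 and TC32 on expression arrays after 6 hours of treatment. A673 and TC32 are each 1 established line grown from an Ewing sarcoma, a bone and soft tissue tumour whose cells carry an EWS/FLI fusion. Cells received DMSO, the solvent, or the agent that the labels call THZ_5_31_1 (THZ531, a covalent inhibitor of the transcription kinases CDK12 and CDK13) at 100 nM or 500 nM. The 6 groups were A673 DMSO, A673 100 nM, A673 500 nM, TC32 DMSO, TC32 100 nM and TC32 500 nM. Each group held 2 arrays, which the labels call biological replicates without naming separate cultures. A p-value here reflects only how far such arrays lie apart, which may be technical, and the number of arrays limits the precision. A dose of 100 nM also stands on the DMSO arrays' labels and was taken not to apply. External spike-in RNA was added to the total RNA of every sample.

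The median log2 signal over the tested genes differed between arrays. It was 8.87 and 8.78 in A673 DMSO, 8.15 and 8.11 in A673 100 nM, and 7.98 and 7.43 in A673 500 nM. In TC32 the medians were 8.08 and 7.94 with DMSO, 7.72 on both arrays at 100 nM, and 6.87 and 6.88 at 500 nM. Over genes, the median offset between the A673 500 nM arrays was 0.52. Whether such shifts are less RNA per cell, fewer cells or scaling cannot be told apart in these bulk samples. Counts and medians of the subunit genes are therefore given on 2 scales, and each single value names its scale. The first is the values as deposited. The second, called the relative scale, subtracts from every array its own median over the 16913 kept genes. Of the Ewing sarcoma markers, CD99 was between 13.15 and 13.89 and PRKCB between 10.72 and 11.73 on all 12 arrays, while the pan-leukocyte marker PTPRC (3.52 to 4.23) stayed under the filter level, as did the epithelial marker EPCAM. Other markers of these lists passed the filter: CD79A and HBB (haematopoietic) and CLDN4 and MUC1 (epithelial). So did PECAM1, VWF and PDGFRB (endothelial and fibroblast) and SYP, SNAP25 and GFAP (neural). Of these 10 tested markers of other cell types, 6 in A673 and 9 in TC32 were higher at 500 nM on the relative scale. Over all tested genes 29.6% in A673 and 41.3% in TC32 were called higher there (limma adjusted p under 0.05). The part of these markers in the results on subunit genes was not tested.

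At 500 nM THZ531 the subunit genes had smaller decreases in signal than the typical gene in both lines. As deposited, the median log2 difference over the 70 members was -0.41 in A673 and -0.06 in TC32, against -0.73 and -0.64 over all tested genes. On the relative scale the same members had a median of 0.42 in A673 and 0.73 in TC32, against 0.10 and 0.15 over all tested genes, so that their direction turns with the scaling. Of the 70 members, 66 in A673 and 67 in TC32 lay above the median of all tested genes. They lay close together, with an SD over genes of 0.145 in A673 and 0.242 in TC32, against 0.664 and 0.782 over all tested genes.

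Calls were made by limma with Benjamini-Hochberg adjusted p under 0.05 over all 10148 genes. As deposited, 47 of the 70 members were lower and 0 higher in A673 at 500 nM, where 82.5% of all tested genes were lower and 0.946% higher. All 70 members had negative differences there, and 49 had an unadjusted p under 0.05. In TC32 at 500 nM 7 members were lower and 0 higher, against 62.9% and 0.946% of all tested genes, and the same number, 7, had an unadjusted p under 0.05. In the main fit the share of members called lower was thus under that of all genes in both lines. The A673 count moved both down and up as single arrays were left out, up to nearly all members. On the relative scale, 62 members were higher and 0 lower in A673, against 29.6% and 27.4% of all tested genes. In TC32 66 were higher and 1 lower, against 41.3% and 30.8%. The as-deposited count in A673 was 17 without replicate 2 of the A673 500 nM arrays and 12 without replicate 1 of the A673 DMSO arrays, and that in TC32 was 14 without either A673 500 nM array and 3 without replicate 1 of the TC32 500 nM or of the TC32 DMSO arrays. In a fit on the arrays of 1 line alone, 10 members were lower as deposited in A673 and 16 in TC32, so that the order of the lines by this count turns. With quantile normalisation in place of the array medians, the relative median of the members was 0.14 in A673, with 34 higher and 4 lower. In TC32 it was 0.26, with 53 higher and 3 lower. Shares of all tested genes are given for the main fits only. Counts from alternative fits, here and below, therefore cannot be set against all genes.

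The members had higher signals than most genes. Over the 70 members signal level and relative change at 500 nM had Spearman rho 0.421 in A673 and 0.415 in TC32. Over 10144 tested genes rho was 0.024 and 0.071. Of the 70 members, 60 had a mean log2 signal of at least 10, against 1437 of all 10148 tested genes. Between 5.943 and 8, where only 2 members lay, the 5433 other genes had relative medians at 500 nM of 0.09 in A673 and 0.13 in TC32. Between 8 and 10, 8 members had a relative median of 0.38 in A673 and 0.62 in TC32 at 500 nM. The 3268 other genes in that range had -0.03 and -0.02, under those of the lowest range. Between 11 and 12, the median was 0.47 in A673 and 0.79 in TC32 for 27 members, against 0.38 and 0.53 for 385 other genes. Between 12 and 15 the 12 members had 0.51 in A673 and 0.75 in TC32, against 0.52 and 0.70 for 232 other genes. At the highest signals the medians of members and other genes were thus close, and the gap was wider in the ranges under 10. The part of signal level in the change of the members was not tested.

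**Figure D1:**
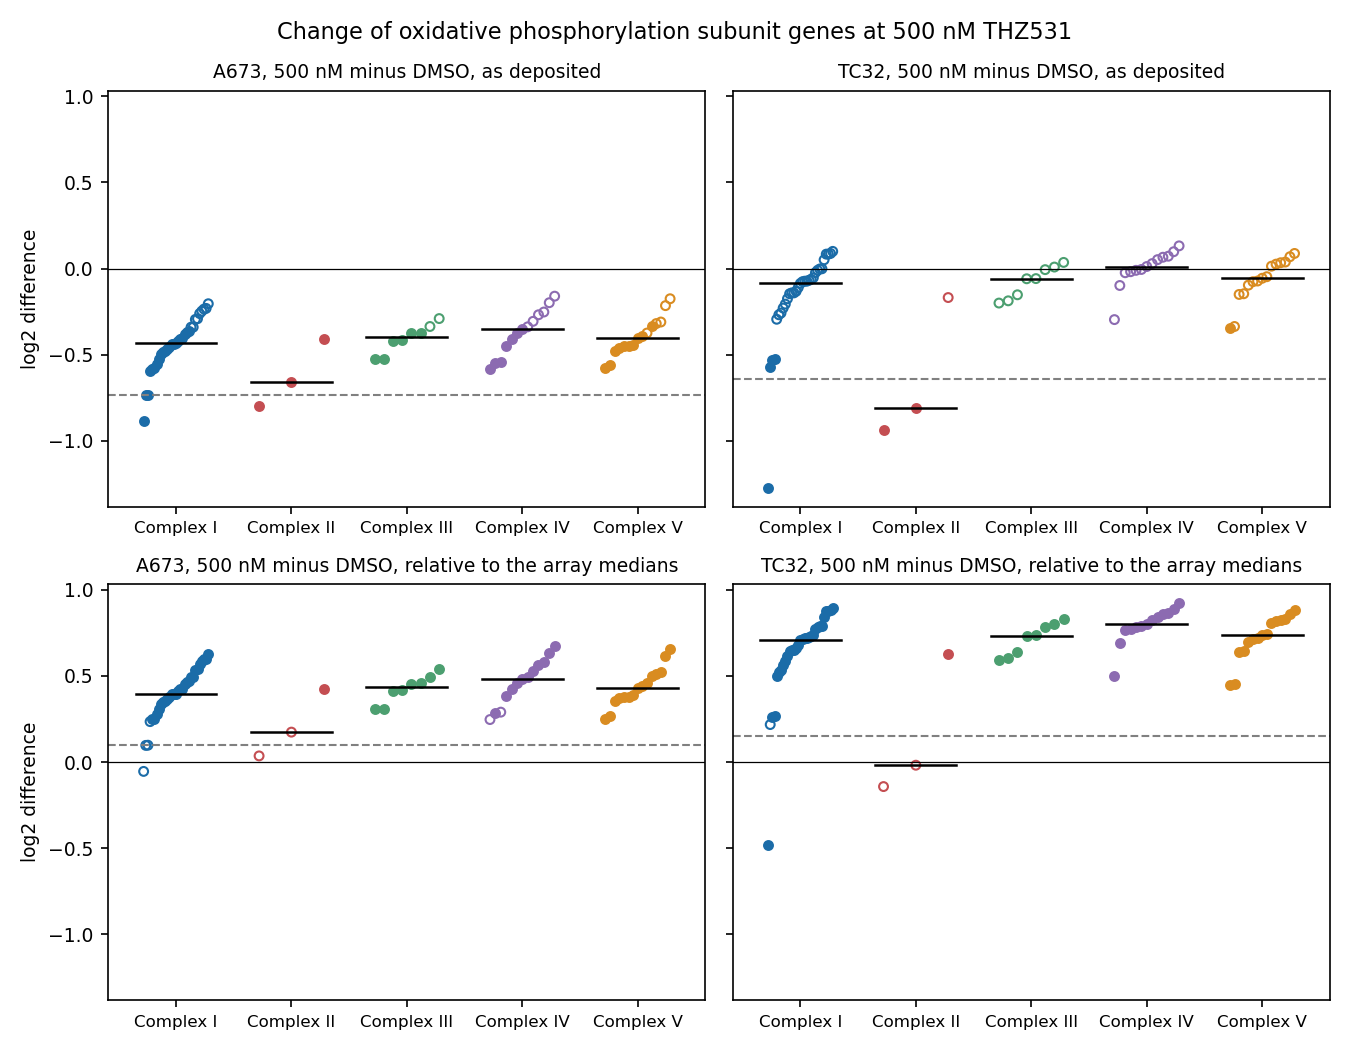
Log2 difference at 500 nM THZ531 minus DMSO (vertical axis) for the 70 tested subunit genes, by complex, as deposited (top) and on the relative scale (bottom), in A673 (left) and TC32 (right). Points are genes (filled: limma adjusted p under 0.05), black bars complex medians and dashed lines the median of all tested genes. As deposited most members lie above the dashed line, and SDHA, SDHD and NDUFV3 are the lowest points in TC32.

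The complexes did not all have the same values. With each array centred, the 500 nM medians in A673 were 0.40 for complex I, 0.17 for complex II, 0.44 for complex III, 0.48 for complex IV and 0.43 for complex V. In TC32 they were 0.71, -0.02, 0.73, 0.80 and 0.74 in the same order. Complex II thus had the lowest median in both lines, over only 3 genes. As deposited, the A673 medians were -0.43 for complex I, -0.66 for complex II, -0.40 for complex III, -0.35 for complex IV and -0.40 for complex V. In TC32 they were -0.09, -0.81, -0.06, 0.01 and -0.06. The counts called lower as deposited in A673 at 500 nM were 21 of 31, 3 of 3, 6 of 8, 7 of 13 and 10 of 15 for complexes I to V, where 82.5% of all tested genes were lower. Complexes I, IV and V lay under that share and complex III was close to it, and the counts are small.

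Upstream sequences of 4 members are shown because these genes mark the ends of the range: COX6A1 had the highest relative change averaged over both lines and COX5B the highest in TC32, while NDUFV3 and SDHA had the lowest averages. They were chosen after their values were seen. Each is the 250 bases before the annotated start of the gene, on the plus strand, from RefSeq (GRCh38.p14): COX6A1 at chr12:120437863-120438112, COX5B at chr2:97645812-97646061, NDUFV3 at chr21:42893059-42893308 and SDHA at chr5:218070-218319. Capitals mark exact matches, on either strand, to CATGCGC (read by NRF1, a regulator of respiratory chain genes), CCGGAAG (read by ETS factors such as GABPA) or AAGATGG (read by YY1).
COX6A1: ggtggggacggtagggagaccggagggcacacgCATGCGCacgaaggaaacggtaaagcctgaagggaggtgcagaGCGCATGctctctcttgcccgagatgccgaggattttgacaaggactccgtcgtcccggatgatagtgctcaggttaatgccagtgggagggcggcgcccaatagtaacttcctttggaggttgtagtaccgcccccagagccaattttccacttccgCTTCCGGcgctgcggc
COX5B: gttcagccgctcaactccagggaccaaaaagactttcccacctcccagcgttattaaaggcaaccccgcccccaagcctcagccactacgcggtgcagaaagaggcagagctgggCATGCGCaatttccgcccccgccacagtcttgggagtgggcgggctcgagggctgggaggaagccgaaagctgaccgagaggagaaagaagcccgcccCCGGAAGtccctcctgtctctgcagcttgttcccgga
NDUFV3: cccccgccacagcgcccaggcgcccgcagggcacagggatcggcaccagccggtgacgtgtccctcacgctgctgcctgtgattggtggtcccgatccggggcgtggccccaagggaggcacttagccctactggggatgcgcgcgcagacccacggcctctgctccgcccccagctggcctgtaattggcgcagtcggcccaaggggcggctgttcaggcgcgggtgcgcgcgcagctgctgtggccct
SDHA: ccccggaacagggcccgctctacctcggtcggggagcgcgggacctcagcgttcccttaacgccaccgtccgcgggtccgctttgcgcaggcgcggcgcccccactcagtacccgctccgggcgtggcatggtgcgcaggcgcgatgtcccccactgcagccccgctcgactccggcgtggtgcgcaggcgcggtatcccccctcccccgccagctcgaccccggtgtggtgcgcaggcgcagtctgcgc
The COX6A1 stretch holds 2 NRF1 matches and 1 ETS match, the COX5B stretch 1 of each, and the other 2 hold none of the 3 motifs. These 4 genes do not stand for the other members. In promoters of 300 bases, SDHD, with a low average of 0.08, held 2 NRF1 matches and 1 ETS match. COX7A2 and NDUFB2, with high averages of 0.73 and 0.72, held none of the 3 motifs. A match describes letters and is not a site of binding.

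In complex I, the largest complex, 27 of 31 members were higher in A673 and 29 of 31 in TC32 at 500 nM on the relative scale. This stands against 29.6% and 41.3% of all tested genes. NDUFV3 went the other way in TC32. NDUFV3, an accessory subunit of the module that oxidises NADH, had log2 signals of 9.07 and 8.93 in TC32 DMSO, 8.05 and 8.17 in TC32 100 nM and 7.69 and 7.76 in TC32 500 nM. The 3 groups did not overlap, and the arrays at 500 nM were the lowest. The A673 DMSO arrays had 10.62 and 10.56, the A673 100 nM arrays 9.84 and 9.84, and the A673 500 nM arrays 9.98 and 9.43, so that both doses lay below DMSO and overlapped each other. As deposited NDUFV3 fell by 1.27 in TC32 (SE 0.21, adjusted p 3.03e-09) and by 0.89 in A673 (SE 0.21, adjusted p 4.53e-05) at 500 nM. After centring, its difference was -0.48 ± 0.12 in TC32 (SE, limma adjusted p 0.00126) and -0.05 ± 0.12 in A673 (adjusted p 0.71). With quantile normalisation these were -0.30 and -0.06.

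The next lowest members of complex I by the average of both lines were NDUFV2 and NDUFS1, of the arm that takes up electrons. NDUFV2, an iron-sulfur subunit beside the flavin, fell as deposited by 0.73 in A673 (limma adjusted p 0.000209) and by 0.57 in TC32 (adjusted p 0.00444), with relative differences of 0.10 and 0.22 that were not called. The TC32 call was lost without replicate 1 of the TC32 500 nM or of the TC32 DMSO arrays, where the adjusted p reached 0.104. NDUFS1, the largest iron-sulfur subunit, fell as deposited by 0.60 in A673 (limma adjusted p 0.0051), and its TC32 difference of -0.52 (adjusted p 0.0171) was lost when any TC32 DMSO or 500 nM array was left out. Its relative differences had the other sign, 0.23 in A673 (adjusted p 0.0976) and 0.27 in TC32 (adjusted p 0.0487, lost in 8 of the 12 fits that left out 1 array).

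The 10 NDUFB genes, for subunits of the membrane arm of complex I, had as-deposited differences of -0.29 to 0.10 in TC32 at 500 nM. NDUFB8, 1 of them, had 11.82 and 11.25 in A673 500 nM and 11.71 and 11.82 in A673 DMSO, and 11.30 and 11.24 in TC32 500 nM against 11.24 and 11.12 in TC32 DMSO. The A673 groups overlapped, and so did those of TC32. Its as-deposited differences were -0.23 ± 0.17 in A673 and 0.08 ± 0.17 in TC32 (SE, limma adjusted p 0.196 and 0.67). In relative terms NDUFB8 rose by 0.60 ± 0.11 in A673 and by 0.88 ± 0.11 in TC32 (adjusted p 6.55e-05 and 2.8e-07). NDUFB2 of the same arm and the zinc-binding subunit NDUFS6 were alike on that scale, at 0.54 each in A673 and 0.89 and 0.88 in TC32, while as deposited they had -0.29 and -0.30 in A673 and 0.10 and 0.09 in TC32, none of them called.

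In complex II, which is also the succinate dehydrogenase of the citric acid cycle, SDHA and SDHD had as-deposited decreases like those of the typical gene, and that of SDHC was smaller. SDHA, the flavoprotein that oxidises succinate, had 10.85 and 10.98 in A673 DMSO, 10.65 and 10.68 in A673 100 nM, and 10.37 and 9.87 in A673 500 nM. The TC32 DMSO arrays had 11.09 and 10.90, the TC32 100 nM arrays 10.47 and 10.66, and the TC32 500 nM arrays 10.01 and 10.11. In both lines the 3 groups did not overlap and were lowest at 500 nM. As deposited SDHA fell at 500 nM by 0.80 in A673 and by 0.93 in TC32 (SE 0.19 each, limma adjusted p 6.77e-05 and 2.6e-06), and both calls held without any single array. On the relative scale it differed by 0.04 ± 0.13 and -0.14 ± 0.13 (adjusted p 0.818 and 0.315), and with quantile normalisation by -0.06 in A673 and -0.44 in TC32, where it was called lower (adjusted p 0.000229). SDHA has near-identical pseudogene copies, which arrays may not separate from it.

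SDHD, a membrane anchor of complex II, had 8.68 and 8.70 in TC32 500 nM against 9.57 and 9.43 in TC32 DMSO, and 10.66 and 9.98 in A673 500 nM against 10.996 and 10.951 in A673 DMSO. The 500 nM arrays were below the DMSO arrays in both lines, without overlap. As deposited SDHD fell by 0.81 in TC32 and by 0.66 in A673 (limma adjusted p 0.000115 and 0.00173), with relative differences of -0.02 and 0.17 (adjusted p 0.9 and 0.224). SDHC, the other anchor, had relative differences of 0.62 in TC32 and 0.42 in A673 (limma adjusted p 2.86e-05 and 0.00214). As deposited it had -0.17 in TC32 (adjusted p 0.415) and -0.41 in A673 (adjusted p 0.0339, a call in the other direction that was lost in 10 of the 12 fits that left out 1 array). With quantile normalisation SDHC was at 0.17 in TC32 (adjusted p 0.0503) and 0.25 in A673 (adjusted p 0.00999). The difference between SDHC and the other subunits was not tested.

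**Figure D2:**
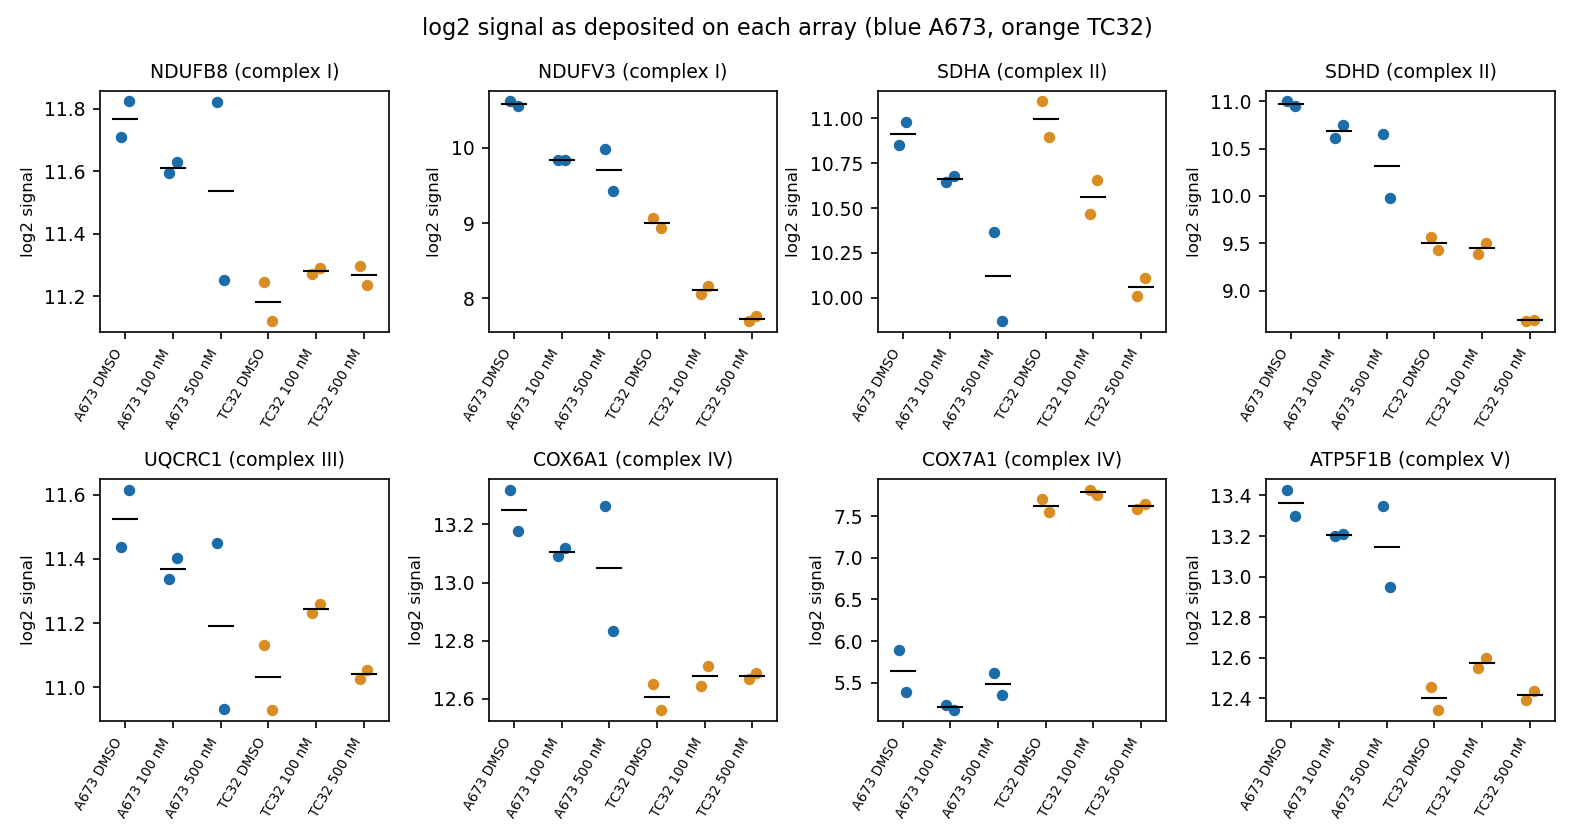
Log2 signal as deposited (vertical axis, its range differs between panels) on each array for 8 subunit genes, with points for arrays and bars for group means, by line and dose (horizontal axis). SDHA in TC32 steps down over DMSO, 100 nM and 500 nM, with 500 nM arrays at 10.01 and 10.11, while COX6A1 in TC32 stays between 12.56 and 12.71.

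In complex III all 8 tested members were higher at 500 nM on the relative scale, with differences of 0.31 to 0.54 in A673 and 0.59 to 0.83 in TC32. The shares of all tested genes called higher were 29.6% in A673 and 41.3% in TC32. UQCRC1, a core protein of the matrix side, had 11.45 and 10.93 in A673 500 nM and 11.44 and 11.62 in A673 DMSO, and 11.03 and 11.06 in TC32 500 nM and 11.13 and 10.93 in TC32 DMSO. The TC32 arrays at 500 nM lay between those with DMSO, and in A673 the groups overlapped. With each array centred, UQCRC1 rose by 0.50 ± 0.12 in A673 and by 0.80 ± 0.12 in TC32 (SE, limma adjusted p 0.00115 and 3.44e-06). UQCRC2, the other core protein, had 0.31 in A673 (adjusted p 0.0105, lost at 0.0521 without replicate 1 of the A673 500 nM arrays) and 0.64 in TC32 (adjusted p 5.72e-06). As deposited UQCRC2 was called in the other direction in A673, at -0.52 (adjusted p 0.00668, lost without replicate 1 of the A673 DMSO arrays), and had -0.15 in TC32 (adjusted p 0.463). UQCRH, the hinge protein that contacts cytochrome c1, and UQCRHL, which is near-identical to it, could share signal, and their relative differences were 0.46 and 0.54 in A673 and 0.79 and 0.61 in TC32, against as-deposited differences of -0.38 and -0.29 in A673 and -0.01 and -0.19 in TC32. As deposited 0 of the 8 were called in TC32 by limma, and 0 had an unadjusted p under 0.05.

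In complex IV, the cytochrome c oxidase, 11 of 13 members in A673 and all 13 in TC32 were higher at 500 nM on the relative scale, against 29.6% and 41.3% of all tested genes. COX6A1, the broadly expressed form of subunit VIa, had 13.26 and 12.84 in A673 500 nM and 13.32 and 13.18 in A673 DMSO, and 12.67 and 12.69 in TC32 500 nM and 12.65 and 12.56 in TC32 DMSO. The A673 groups overlapped, and the TC32 arrays at 500 nM were the higher ones by a small margin. As deposited its differences were -0.20 ± 0.14 and 0.07 ± 0.14 (SE, limma adjusted p 0.181 and 0.658). After centring, COX6A1 rose by 0.63 ± 0.08 in A673 and by 0.86 ± 0.08 in TC32 (adjusted p 5.49e-07 and 2.94e-09), and with quantile normalisation by 0.11 and 0.17 (adjusted p 0.0448 and 0.00414).

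COX5B, a zinc-binding subunit, had 10.68 and 10.86 in TC32 500 nM and 10.68 and 10.60 in TC32 DMSO, and 11.18 and 10.48 in A673 500 nM and 11.36 and 11.11 in A673 DMSO. In TC32 the arrays at 500 nM lay just above those with DMSO, and in A673 the groups overlapped. Its relative difference in TC32, 0.92 ± 0.11 (SE, limma adjusted p 2.79e-07), was the highest of the 70 members in that line, and in A673 it was 0.43 (adjusted p 0.00308, lost at 0.075 without replicate 1 of the A673 500 nM arrays). As deposited COX5B had 0.13 in TC32 (adjusted p 0.526) and -0.41 in A673 (adjusted p 0.0352, lost in 10 of the 12 fits that left out 1 array). COX4I1 and COX5A, 2 subunits that join the complex early, had relative differences of 0.49 and 0.48 in A673 and 0.80 and 0.86 in TC32, and as-deposited differences of -0.34 and -0.35 in A673 and 0.01 and 0.07 in TC32. COX7A2, the broadly expressed form of subunit VIIa, had 0.56 in A673 and 0.89 in TC32 on the relative scale, and -0.27 and 0.10 as deposited. COX7A2L, a paralogue that helps to join complexes III and IV, had 0.29 in A673 (adjusted p 0.0553) and 0.50 in TC32 (adjusted p 0.00165) on the relative scale, and -0.54 and -0.30 as deposited (adjusted p 0.00871 and 0.173). COXFA4, formerly counted in complex I as NDUFA4 and now placed in complex IV, is outside the symbol rule and had 0.45 and 0.90 on the relative scale and -0.38 and 0.11 as deposited.

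In complex V all 15 tested members were higher at 500 nM on the relative scale, with differences of 0.25 to 0.66 in A673 and 0.45 to 0.88 in TC32. Of all tested genes 29.6% were higher in A673 and 41.3% in TC32. ATP5F1B, the catalytic beta subunit, had 13.35 and 12.95 in A673 500 nM and 13.43 and 13.30 in A673 DMSO, and 12.39 and 12.43 in TC32 500 nM and 12.46 and 12.34 in TC32 DMSO. In both lines the groups overlapped. In relative terms ATP5F1B rose by 0.62 ± 0.08 in A673 and by 0.81 ± 0.08 in TC32 (SE, limma adjusted p 8.94e-07 and 1.03e-08), which became 0.07 (adjusted p 0.133) and 0.13 (adjusted p 0.00761) with quantile normalisation. The alpha subunit gene ATP5F1A had 0.35 in A673 and 0.65 in TC32, and -0.16 and 0.03 with quantile normalisation, so its direction in A673 flips with the scaling. As deposited ATP5F1A was called lower in A673, at -0.48 (adjusted p 0.0023, lost without replicate 1 of the A673 DMSO arrays), and had -0.15 in TC32 (adjusted p 0.378). ATP5PB of the peripheral stalk had the lowest relative difference of the complex in TC32, 0.45 (limma adjusted p 0.000125), and -0.11 with quantile normalisation and -0.35 as deposited. ATP5MC1 and ATP5MC3, which encode the same ring subunit, had 0.46 and 0.50 in A673 and 0.83 and 0.72 in TC32, and the ATP5MC1 call in A673 was lost without replicate 1 of the A673 500 nM arrays (adjusted p 0.1). As deposited they had -0.37 and -0.33 in A673 and 0.03 and -0.07 in TC32. ATP5IF1, which inhibits the enzyme and is no subunit, had 0.27 in A673 (adjusted p 0.0196, lost without replicate 2 of the A673 500 nM or replicate 1 of the A673 DMSO arrays) and 0.64 in TC32 on the relative scale. As deposited it was called lower in A673, at -0.56 (adjusted p 0.00174), and had -0.15 in TC32 (adjusted p 0.429).

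**Figure D3:**
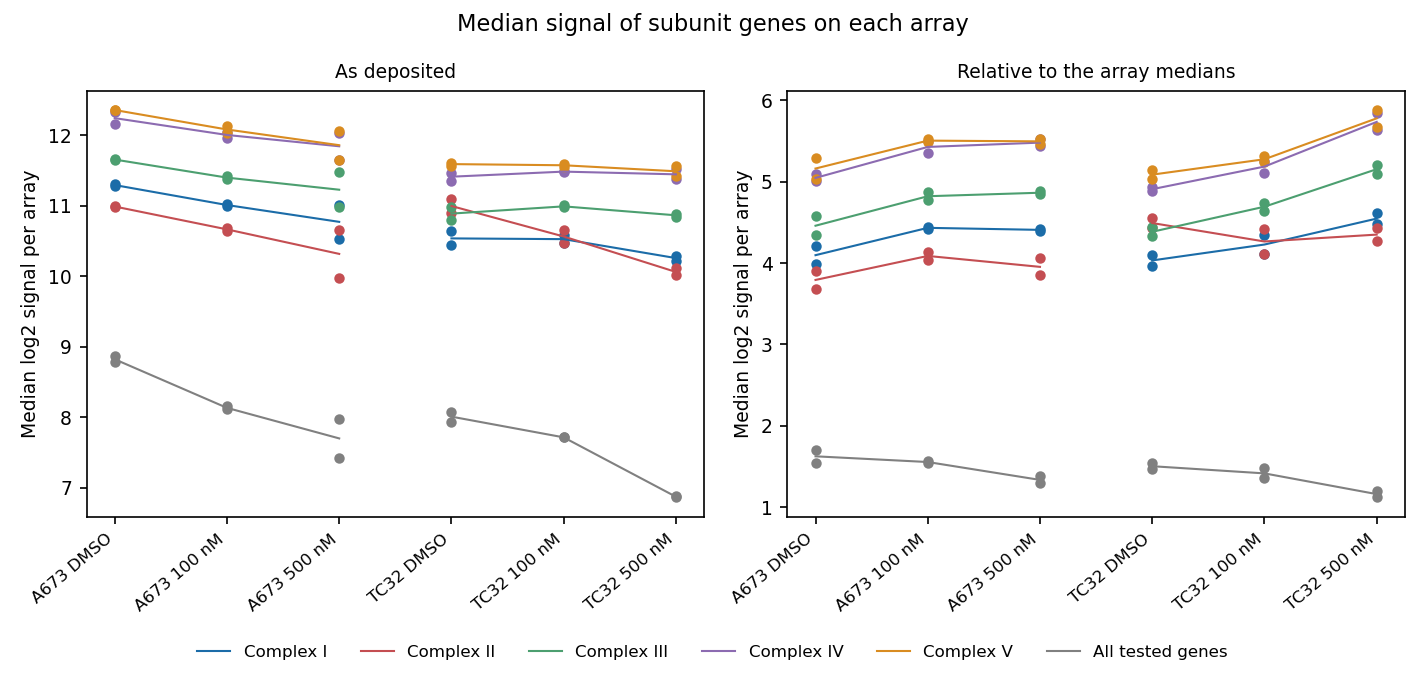
Median log2 signal over the tested genes of each complex and over all tested genes on each array (points) with group means (lines), as deposited (left) and on the relative scale (right), by line and dose. Heights of different complexes come from different probes and are not compared, and a median of gene differences need not equal a difference of these medians. In TC32 the median of all tested genes is 6.87 and 6.88 at 500 nM, against 8.08 and 7.94 with DMSO, while that of complex IV stays between 11.35 and 11.52.

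The 100 nM arrays are given against the same DMSO arrays as those at 500 nM. In A673 at 100 nM the median over members was -0.29 as deposited and 0.33 on the relative scale, against -0.52 and 0.10 over all tested genes. In TC32 at 100 nM it was 0.04 and 0.25, against -0.07 and 0.13. As deposited 14 members were lower and 0 higher in A673 (58.7% and 1.31% of all tested genes), with 23 at an unadjusted p under 0.05, and 1 was lower and 0 higher in TC32 (20.9% and 5.56%), with 3 at an unadjusted p under 0.05. That 1 gene was NDUFV3, at -0.89 ± 0.21 as deposited and -0.69 ± 0.12 when centred (SE, limma adjusted p 0.00014 and 6.01e-05). The A673 count of 14 was 2 without replicate 1 of the A673 DMSO arrays, 4 and 3 without replicate 1 and replicate 2 at 100 nM, 8 without any 1 of the TC32 arrays and 55 without either A673 500 nM array, and in TC32 leaving out either A673 500 nM array gave 6 lower and 4 higher. On the relative scale 48 members were higher and 0 lower in A673 (24.4% and 17.1%), and 36 were higher and 1 lower in TC32 (30.6% and 21.2%). The relative counts of members higher were 21 without replicate 2 of the A673 100 nM arrays and 24 without replicate 1 of the A673 DMSO arrays, and in TC32 13 without replicate 2 at 100 nM and 17 and 12 without replicate 1 and replicate 2 of the DMSO arrays. With quantile normalisation 12 members were higher and 5 lower in A673, and 15 higher and 7 lower in TC32, with medians of 0.07 and 0.04.

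Between the doses, the lines had different counts. With each array centred, 56 of 70 members were higher and 0 lower at 500 nM than at 100 nM in TC32, against 29.1% and 29.8% of all tested genes, with a member median of 0.49. In A673, 2 members (COX7A1 and COX7C, named for this count) were higher and 1 (SDHA) lower, against 10.4% and 25.1% of all tested genes, with a member median of 0.10, and these counts ranged between 1 and 5 and between 0 and 1 as single arrays were left out. All COX7A1 values in A673 lay under the filter level, and it was tested through its signal in TC32. As deposited, 3 members were lower at 500 nM than at 100 nM in TC32 and 1 in A673, against 55.5% and 26.7% of all tested genes. The 3 in TC32 were SDHD (-0.76), NDUFV2 (-0.54) and SDHA (-0.50), and the 1 in A673 was SDHA (-0.54). The TC32 count was 21 without either A673 500 nM array and 1 without replicate 2 of the TC32 100 nM or replicate 1 of the TC32 500 nM arrays. The A673 count was 61 without replicate 1 of the A673 500 nM arrays and 0 without replicate 2 of them or without either A673 100 nM array.

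The difference of the 500 nM effect between the lines was tested directly. After centring, the effect was larger in TC32 than in A673 for 66 of the 70 members and for 5815 of all 10148 tested genes. The median difference was 0.29 over members against 0.06 over all tested genes. By limma 4 members passed in either direction, all higher in TC32, where 9.8% of all tested genes passed. Named for this count, they were ATP5PO, the stalk protein that joins the ATP synthase head, at 0.49 (adjusted p 0.0183), COX6C at 0.49 (adjusted p 0.0196), ATP5MK, a small membrane subunit, at 0.47 (adjusted p 0.0353) and UQCRQ at 0.42 (adjusted p 0.0441). The count was 0 without replicate 1 of the A673 500 nM arrays or either TC32 DMSO array, and 9 or 10 without replicate 1 of the A673 DMSO arrays or either TC32 100 nM array. As deposited 0 members passed by limma, 5 had an unadjusted p under 0.05, and 1.83% of all tested genes passed. Without replicate 1 of the A673 500 nM arrays 61 members were higher as deposited. At 100 nM 1 member passed as deposited, COX6A2, whose TC32 DMSO values were near the filter level, with 2.31% of all tested genes passing. On the relative scale 0 members passed (4 with an unadjusted p under 0.05), with 2.62% of all tested genes passing. The as-deposited count at 100 nM was 44 without either A673 500 nM array.

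**Figure D4:**
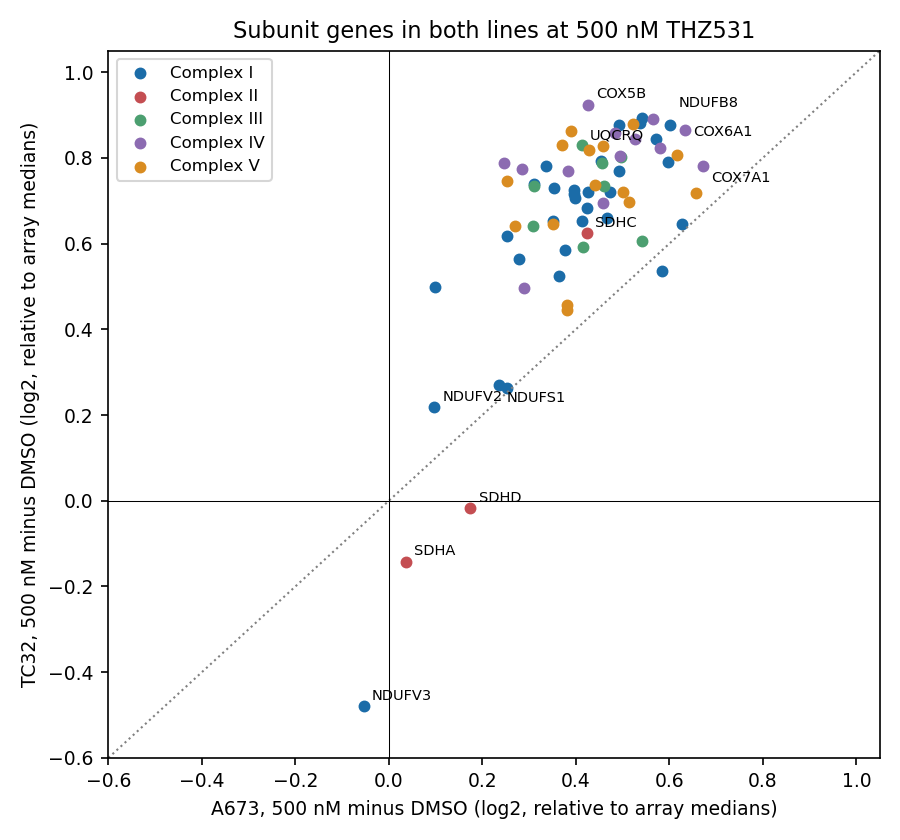
Log2 difference at 500 nM minus DMSO on the relative scale in A673 (horizontal axis) and TC32 (vertical axis) for the 70 tested subunit genes, coloured by complex, with the line of equality dotted. Of the points, 66 lie above the dotted line, where 5815 of all 10148 tested genes (not drawn) would also lie. NDUFV3, SDHA and SDHD lie apart from the others at -0.48, -0.14 and -0.02 in TC32.

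Across the 70 members the relative 500 nM differences of the lines had Pearson r 0.718 and Spearman rho 0.574. Over all 10148 tested genes r was 0.883. The genes share the same arrays and are not independent replicates. NDUFV3, SDHA and SDHD were the 3 lowest members in TC32, and 2 of them, NDUFV3 and SDHA, were also the 2 lowest in A673.

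With DMSO alone the lines differed in single members. A673 DMSO was higher than TC32 DMSO as deposited in 58 of the 70 members, against 77.4% of all tested genes. In relative terms 18 members were higher and 14 lower in A673 DMSO, against 33.9% and 21.4% of all tested genes, with a member median of 0.01. These counts were 11 higher without replicate 2 of the TC32 DMSO arrays and 9 lower without replicate 1 of the A673 DMSO arrays. COX7A1, the form of subunit VIIa typical of heart and skeletal muscle, had 5.89 and 5.40 in A673 DMSO against 7.70 and 7.55 in TC32 DMSO. The groups did not overlap. The A673 values lay under the filter level of 5.943, which COX7A1 passed through TC32, so that no difference is given. COX7A1 still counts among the 14 members lower in A673 DMSO, and it entered that count only through its TC32 signal. NDUFS3, a core subunit of complex I chosen here after its values were seen, had 12.37 and 12.22 in A673 DMSO against 10.53 and 10.39 in TC32 DMSO, a relative difference of 1.14 ± 0.10 (SE, limma adjusted p 2.67e-09). SDHD (0.78) and NDUFV3 (0.90) were also higher in A673 DMSO on that scale, while UQCRB (-0.91), COX6C (-0.85) and SDHA (-0.77) were lower.

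Other genes of respiration did not all move like the subunits. A list of 4 further genes outside the symbol rule held CYC1, CYCS, NDUFAB1 and DLD. They had relative differences at 500 nM of 0.25 to 0.46 in A673 and 0.45 to 0.73 in TC32, with 3 and 4 called higher. Of 43 tested assembly factors, 7 were higher and 10 lower in A673, and 17 higher and 13 lower in TC32, with medians of 0.02 and -0.01. Over all tested genes 29.6% were higher and 27.4% lower in A673, and 41.3% and 30.8% in TC32. As deposited 39 of the 43 were lower in A673 and 27 in TC32, where 82.5% and 62.9% of all tested genes were lower, so that the TC32 count is at the share of all genes. TMEM70, which helps to assemble complex V, fell by 2.09 in A673 and by 2.55 in TC32 as deposited, and by 1.26 and 1.76 on the relative scale (limma adjusted p 3.36e-09 and 1.07e-11). SDHAF1, needed to insert iron-sulfur clusters into complex II, fell by 0.97 and 1.68 on the relative scale. Its log2 signals at 500 nM, 5.92 and 5.41 in A673 and 5.10 and 4.85 in TC32, lay under the filter level of 5.943. SDHAF1 passed that level through its other arrays, so the size of its fall rests on low signals. COX16 (0.58 and 0.92) and ATPAF2 (0.48 and 0.73), assembly factors of complexes IV and V, had the highest averages.

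Regulators of respiratory chain genes had the widest spread of these lists. Of 13 on the list 11 were tested. On the relative scale 5 were lower and 2 higher in A673, against 27.4% and 29.6% of all tested genes. In TC32 6 were lower and 3 higher, against 30.8% and 41.3%. NRF1, a transcription factor of many respiratory chain genes, had log2 signals of 5.17 and 5.15 in A673 500 nM against 7.93 and 7.86 in A673 DMSO, and 4.75 and 4.85 in TC32 500 nM against 6.92 and 6.98 in TC32 DMSO. The 500 nM arrays were lower without overlap in both lines and lay under the filter level. On the relative scale NRF1 fell by 1.91 in A673 and by 1.36 in TC32 (limma adjusted p 3.8e-10 and 5.44e-08). PPRC1, a coactivator of the PGC-1 family, fell by 1.41 and 2.04, and TFB2M, a mitochondrial transcription factor, by 0.62 and 1.48. ESRRA (-0.57 and -0.78) and TFB1M (-0.68 and -0.52) were also lower in both lines. In TC32 500 nM the log2 signals of PPRC1 (5.445 and 5.487) and TFB1M (5.851 and 5.848) lay under the filter level. POLRMT, the mitochondrial RNA polymerase, had -0.19 (adjusted p 0.198) and -0.39 (adjusted p 0.009). TFAM, which packages mitochondrial DNA, rose by 0.62 and 0.52. GABPA (0.09 and 0.33), YY1 (0.45 and -0.17), PPARGC1B (0.09 and 0.47) and LRPPRC (-0.09 and 0.18) had smaller values.

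The mitochondrial ribosome, all of whose 69 genes on the list were tested, had a median at 500 nM of -0.84 in A673 and -0.93 in TC32 as deposited, with 64 and 59 genes lower, against 82.5% and 62.9% of all tested genes. With each array centred, 12 were higher and 16 lower in A673, and 16 higher and 31 lower in TC32, with medians of 0.00 and -0.14, where all tested genes had 29.6% higher and 27.4% lower in A673 and 41.3% and 30.8% in TC32. MRPL46 and MRPL36 were the lowest by the average of both lines, and MRPL46 fell by 1.08 and 1.66 on the relative scale. The cytoplasmic ribosomal proteins, given for comparison, had relative medians of 0.54 in A673 and 0.76 in TC32, with 65 and 66 of 68 higher. In the citric acid cycle list 4 of 10 tested genes in A673 and 6 in TC32 were higher on the relative scale, among them CS (0.55 and 0.60) and MDH2 (0.53 and 0.59). The 13 mitochondrially encoded subunits were not analysed here.

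**Figure D5:**
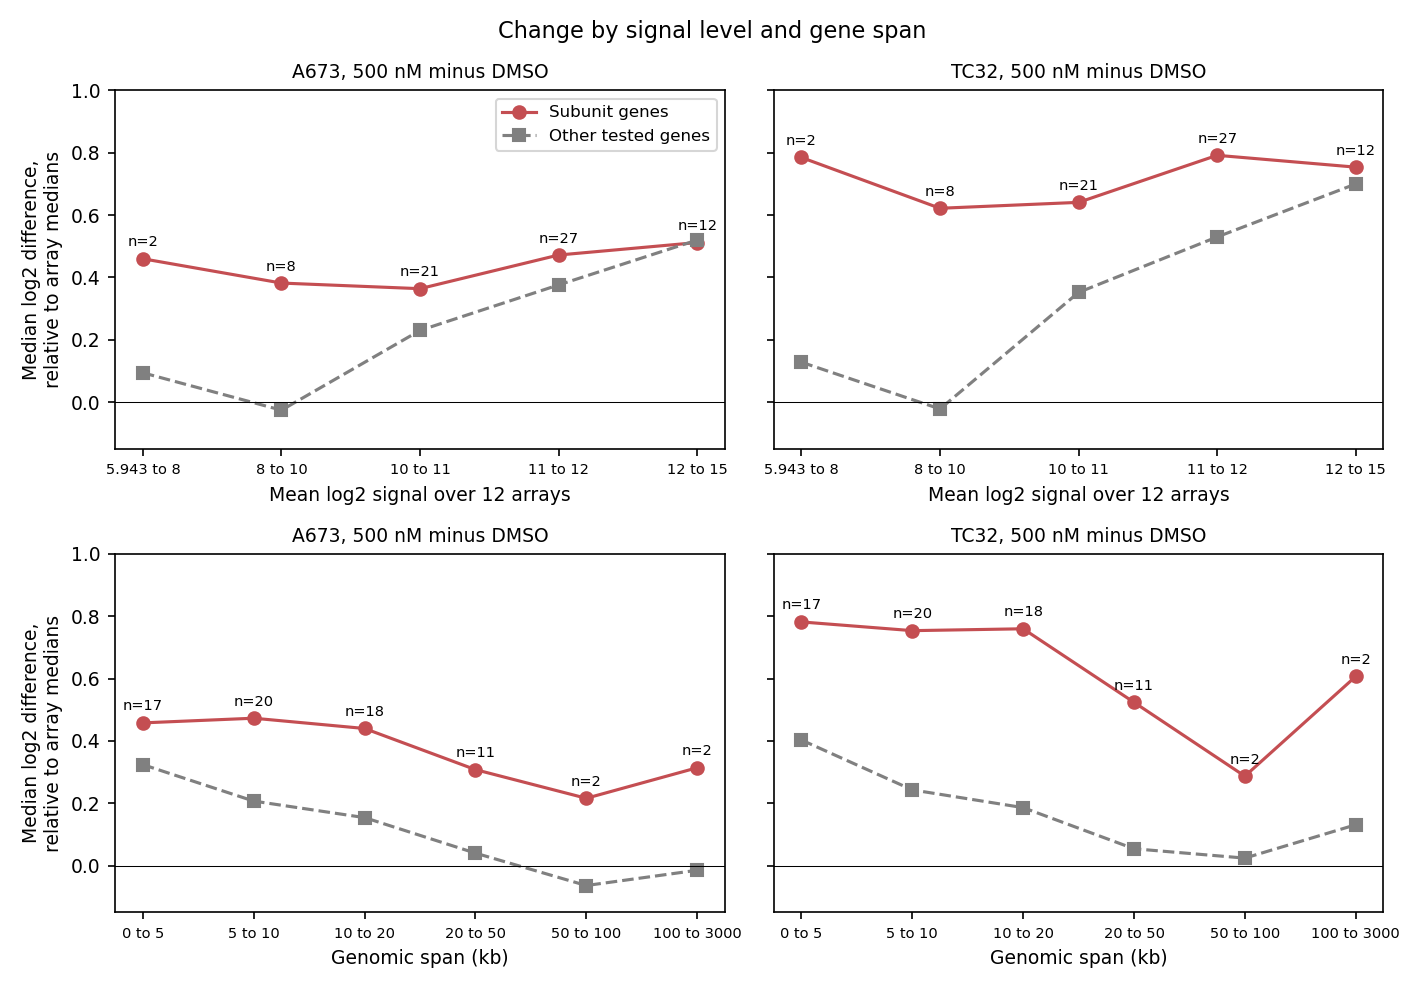
Median log2 difference at 500 nM minus DMSO on the relative scale (vertical axis) by mean log2 signal (top) and genomic span in kb (bottom), for subunit genes (red, n of members above each point) and other tested genes (grey), in A673 (left) and TC32 (right). The curves meet at the highest signals, at 0.51 for members and 0.52 for other genes in A673.

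The members also shared features that the symbols do not fix. Their genes spanned a median of 9.08 kb from start to end of the annotated gene (interquartile range 5.30 to 17.7 kb), against 28.4 kb over 10144 tested genes, by RefSeq GRCh38.p14. Among genes of 5 to 10 kb the relative 500 nM median was 0.47 in A673 and 0.75 in TC32 for 20 members, against 0.21 and 0.24 for 1166 other genes. Among genes of 20 to 50 kb it was 0.31 and 0.52 for 11 members, against 0.04 and 0.05 for 2733 other genes. Within each of these span ranges the members lay above the other genes. Over the 70 members the relative difference and the log10 span had Pearson r -0.377 in A673 and -0.365 in TC32 (Spearman rho -0.409 and -0.419), a description over genes that share the same arrays. The members lie on 22 chromosomes.

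Of the 75 kept members, 60 had a promoter of 300 bases (250 before and 50 after the start) in the RefSeq table. The NRF1 letters CATGCGC were found in 11 of these (18.3%), against 7.7% of 8397 promoters of tested genes and 4.7% of 27305 promoters in the table. CCGGAAG was found in 17 (28.3%), against 19.5% and 10.7%, and AAGATGG in 14 (23.3%), against 7.9% and 6.1%. At least 1 of the 3 was in 34 promoters (56.7%), against 30.9% and 19.3%. Both strands were searched, and CCGGAAG can overlap AAGATGG by its last letters.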

How the data were processed

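The deposited matrix held values of 49395 probe sets on 12 PrimeView arrays. The values are log2 expression values as deposited by the authors; the submitters' processing notes name MAS5, GRCh37 and hg19, and the method of normalisation between arrays is not given in the sources used here. Of the probe sets, 44994 are annotated to 1 gene, 1832 to several and 2569 to none, and 2829 entries rounded to 2 decimals were left out. Each gene took its probe set with the highest mean, and genes sharing identical values were dropped, which left 16913. Genes with a mean under the 40th percentile (5.943) were not tested.

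One limma fit over the 6 groups (trended eBayes, Benjamini-Hochberg over 10148 genes, threshold 0.05) was run on the values as deposited and again after subtracting each array's median. In the as-deposited fit the prior degrees of freedom were infinite, and shifts shared by all genes of an array enter its error. The fitting step was tested on simulated data for the A673 500 nM comparison, with the spread of the relative scale. The members and lists were chosen with earlier results of these data known. Named are the 3 lowest and 3 highest members of each complex by the relative 500 nM change averaged over the lines, a set of core members, all regulators, and the 2 lowest and 2 highest genes of the other lists; ATP5MK, ATP5PO, COX7C, COXFA4, NDUFS3 and UQCRHL were added after their values were seen. Alternatives were quantile normalisation, no filter, no trend, a mean over probe sets, 1 line alone, the replicate number as a block, and leaving out each array. Promoters are RefSeq, GRCh38.p14. Software was R 4.3.3, limma 3.58.1, Python 3.11.15, pandas 2.3.3 and matplotlib 3.10.9.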

Additional observations from a re-analysis of the deposited data

Results flagged for a closer look

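For 5 of the 70 members the effect of a dose differed between the lines by a test of the difference itself. Each value is the TC32 effect minus the A673 effect. Over all tested genes 2.31% passed at 100 nM as deposited and 9.8% at 500 nM on the relative scale. By count the members lay under both shares. COX6A2, the muscle form of subunit VIa, differed by 1.098 at 100 nM as deposited (limma adjusted p 0.0319), and the call was lost in 8 of the 12 fits that left out 1 array. Its log2 signal was between 5.76 and 7.31 over the 12 arrays. The A673 DMSO arrays had 7.31 and 6.56, against 5.76 and 6.03 in TC32 DMSO, near the filter level of 5.943. The COX6A2 difference thus rests on low signals. At 500 nM on the relative scale COX6C differed by 0.491 (adjusted p 0.0196), and the call was lost without replicate 1 of the A673 500 nM, replicate 1 of the TC32 500 nM or either TC32 DMSO array. UQCRQ differed by 0.416 (adjusted p 0.0441), and the call was lost in 8 of the 12 fits. ATP5PO differed by 0.492 (adjusted p 0.0183) and ATP5MK by 0.471 (adjusted p 0.0353). On that scale 0 members passed by limma at 500 nM without replicate 1 of the A673 500 nM arrays or without either TC32 DMSO array. The part of signal level in these differences was not tested.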

How the results depend on the processing

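With arrays centred on their medians, the as-deposited counts of members lower became 0 in A673 at 500 nM (62 higher, median 0.424), 1 in TC32 at 500 nM (66 higher, median 0.728) and 0 in A673 at 100 nM (48 higher, median 0.332), with 36 higher in TC32 at 100 nM. Between doses they became 2 higher in A673 (median 0.099) and 0 lower and 56 higher in TC32 (median 0.492). The difference between lines became 4 higher at 500 nM and 0 higher at 100 nM (median -0.1), and A673 DMSO against TC32 DMSO 18 higher and 14 lower. With quantile normalisation the relative counts were 34 higher and 4 lower in A673 and 3 lower in TC32 at 500 nM, and 12 higher and 5 lower in A673 and 15 higher and 7 lower in TC32 at 100 nM. Between doses in A673 20 were higher. The lines differed in 12 members higher and 1 lower at 500 nM and 1 higher and 2 lower at 100 nM. Genes that changed sign under quantile normalisation included, at 500 nM in A673, UQCRQ (-0.017), ATP5PB (-0.069), ATP5IF1 (-0.095) and ATP5F1A (-0.159), and in TC32 ATP5PB (-0.112). SDHA in A673 at 500 nM, given above, also changed sign, and the list is not complete. At 100 nM in A673 such genes included UQCRC2 (-0.017), UQCRQ (-0.095), ATP5PB (-0.072), ATP5IF1 (-0.264), ATP5F1E (-0.024), ATP5F1A (-0.082) and ATP5MC3 (-0.049), and in TC32 COX6A1 (-0.013), ATP5PB (-0.111), COX5A (-0.008) and ATP5MC3 (-0.025). The cause was not tested. Counts from alternative fits in this section stand without the share of all tested genes in the same fit and describe the members only.

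Fits on 1 line alone gave, as deposited, 10 members lower at 500 nM, 3 at 100 nM and 0 between doses in A673, and 16 at 500 nM, 6 lower and 6 higher at 100 nM and 23 lower between doses in TC32. Without the filter, 2 members were lower between doses in A673 as deposited, and 0 lower and 1 higher on the relative scale. Without the trend, 0 were lower between doses in A673 and 0 differed between lines at 500 nM. Leaving out each array gave, as deposited, 12 to 69 lower in A673 and 3 to 14 in TC32 at 500 nM, 2 to 55 lower in A673 at 100 nM, and 1 to 6 lower and 0 to 4 higher in TC32 at 100 nM. Between doses it gave 0 to 61 lower and 0 to 3 higher in A673 (median -0.37 to 0.135) and 1 to 21 lower in TC32. The lines differed in 0 to 2 members lower and 0 to 61 higher at 500 nM and 0 to 44 higher at 100 nM, and 1 to 2 were lower in A673 DMSO than in TC32 DMSO. On the relative scale it gave 0 to 1 lower and 21 to 57 higher in A673 and 1 to 3 lower and 12 to 43 higher in TC32 at 100 nM, and 0 to 1 lower and 1 to 5 higher between doses in A673. The lines differed in 0 to 1 lower and 0 to 10 higher at 500 nM and 0 to 5 lower and 0 to 1 higher at 100 nM (median -0.198 to 0.001), and A673 DMSO had 9 to 20 lower and 11 to 19 higher. The 500 nM relative medians kept their sign in each of these fits.

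The replicate numbers of the labels were not taken to pair the arrays: with 2 pairs, the correlations of same-numbered deviations were -0.156 to 0.438. With the replicate block, relative counts were 8 higher between doses in A673, 18 higher between lines at 500 nM and 1 lower at 100 nM, and the other counts stayed within 1.5 times, such as 49 lower as deposited in A673 at 500 nM. Placing NDUFA4 in complex I was not run, as its current symbol is COXFA4. With 2 arrays a group, the as-deposited counts rest on single arrays, and low signals such as COX7A1 in A673 lie under the filter level.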
